A study of Rattus norvegicus with 4 samples.

Results

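Genes that mark mast cells, neutrophils and cytotoxic granules were followed in visceral adipose tissue of obese and control rats. They were taken by name from a list of 10, each was measured by 1 probe set of its own, and they are 10 of the 10411 genes that the arrays measured. The samples came from male Wistar rats aged 130 days, and RNA of visceral fat was hybridised to 4 single-colour oligonucleotide arrays. The labels name 2 arrays Control and 2 arrays Obese, give no diet, genotype, treatment or cause of obesity, and leave unsaid if a sample came from 1 animal or from several. The p-values thus reflect the spread among these 4 samples alone, and that spread may be technical. Median signals were 75.0 to 83.1 on the 4 arrays, and log2 signals correlated at 0.976 between the control arrays and at 0.966 between the obese arrays, across tested probe sets, which are not independent replicates.

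Mast cells are tissue-resident cells of the blood lineage that store histamine, heparin-like proteoglycans and proteases in granules and release them when IgE bound to its high-affinity receptor is cross-linked. In fat they lie around vessels and nerves, and their survival depends on the receptor tyrosine kinase Kit and its ligand, stem cell factor. Neutrophils are short-lived granulocytes whose cytosol is rich in the calcium-binding proteins S100A8 and S100A9, and cytotoxic lymphocytes keep granzymes in granules. The 10 genes cover these roles: the mast cell proteases Cma1 (chymase), Cpa3 (carboxypeptidase A3), Tpsab1 and Tpsb2 (tryptases); Hdc, the enzyme that makes histamine; the receptors Fcer1a (IgE-binding alpha chain) and Kit; S100a8 and S100a9; and Gzmb (granzyme B).

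Signals of Cma1, Cpa3, Tpsab1, Hdc and Gzmb were higher on both obese arrays than on either control array, with mean differences of 1.48-fold to 1.92-fold. Tpsb2, Fcer1a, Kit, S100a8 and S100a9 overlapped between the groups. In bulk tissue, a change in the number of cells of a type and a change in RNA per cell cannot be told apart. Of the 10 genes, 5 were thus higher without overlap and 0 were lower without overlap, where 15.6% of all 12929 tested probe sets were higher and 24.4% were lower in this way. The shares over all probe sets were 21.8% and 16.9% with median centring, 18.8% and 20.6% with quantile normalization and 19.4% and 20% with cyclic loess, and the counts among the 10 genes stayed at 5 and 0 in each. Probe sets were tested when at least 2 arrays exceeded a floor of 20.8, the 20th percentile of all signals, under which values were treated as equal in the test and in log2 differences. Of the 9 genes tested, 0 passed limma's test, adjusted by Benjamini-Hochberg across the whole array, and 4 had an unadjusted p under 0.05, where 0.0% of probe sets passed in either direction and 8.3% had an unadjusted p under 0.05. The median log2 difference was 0.49 over the 10 genes and 0.0 over all measured probe sets. Over the 9 tested genes it was 0.565, and over all tested probe sets -0.044. With 2 arrays in each group an exact two-sided permutation test cannot give a p below 0.333, so none was run.

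Control regions of several mast cell genes are known to be bound by GATA factors and by the E-box factor Mitf. The 250 bases before the annotated start are shown for the 4 granule proteases whose groups did not overlap (Cma1, Cpa3, Tpsab1 and Gzmb), and for Tpsb2, the tryptase gene that lies beside Tpsab1 on chromosome 10 with 0 protein-coding genes between them. The sequences are from RefSeq, build GRCr8, and run 5′ to 3′ on the strand of the gene. Capitals mark GATAA, the core of a GATA motif, or its reverse complement TTATC.
Cma1, chr15:33390134-33390383, minus strand: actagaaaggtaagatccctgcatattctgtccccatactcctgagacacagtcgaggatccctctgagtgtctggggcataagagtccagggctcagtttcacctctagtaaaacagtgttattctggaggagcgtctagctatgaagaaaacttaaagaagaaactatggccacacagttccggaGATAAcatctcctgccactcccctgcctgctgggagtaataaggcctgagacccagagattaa
Cpa3, chr2:104673238-104673487, minus strand: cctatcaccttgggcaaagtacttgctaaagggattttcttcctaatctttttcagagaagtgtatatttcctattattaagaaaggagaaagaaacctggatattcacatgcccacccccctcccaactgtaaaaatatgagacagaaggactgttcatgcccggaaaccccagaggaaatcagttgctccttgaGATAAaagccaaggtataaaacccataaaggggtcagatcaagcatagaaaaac
Tpsab1, chr10:14867303-14867552, minus strand: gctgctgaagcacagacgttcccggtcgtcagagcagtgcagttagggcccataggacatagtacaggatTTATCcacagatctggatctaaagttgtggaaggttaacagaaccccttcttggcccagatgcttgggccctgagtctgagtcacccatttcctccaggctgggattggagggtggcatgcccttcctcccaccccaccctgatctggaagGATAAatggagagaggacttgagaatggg
Tpsb2, chr10:14886060-14886309, plus strand: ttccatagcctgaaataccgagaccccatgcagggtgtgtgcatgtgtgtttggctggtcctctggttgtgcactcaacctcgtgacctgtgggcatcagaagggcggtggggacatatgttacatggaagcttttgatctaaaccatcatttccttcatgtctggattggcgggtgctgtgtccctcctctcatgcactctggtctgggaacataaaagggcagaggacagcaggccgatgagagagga
Gzmb, chr15:34462470-34462719, minus strand: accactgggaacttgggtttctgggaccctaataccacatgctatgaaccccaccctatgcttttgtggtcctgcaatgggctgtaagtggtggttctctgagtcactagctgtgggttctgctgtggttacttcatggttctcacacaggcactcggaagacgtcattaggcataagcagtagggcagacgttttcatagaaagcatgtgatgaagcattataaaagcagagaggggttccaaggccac

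The GATAA core was found once before Cma1 and once before Cpa3, in each case within 63 bases of the start, and 2 times before Tpsab1. It was not found in the window of Tpsb2, nor in those of Hdc, Kit and Gzmb. Of the 9 genes with a promoter in the RefSeq table, 5 held the core on either strand, the others being Fcer1a and S100a9, while 23.5% of 33469 windows of the same length held it. The E-box CACATG, or CATGTG on the other strand, was found before Cpa3, Tpsb2, Fcer1a and Gzmb and in 12.1% of all windows. No match overlapped a match of the other motif. These matches describe letters in a window and say nothing of binding. The table held no window for S100a8.

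Chymase, encoded by Cma1, is a serine protease stored in the granules of connective tissue mast cells. Its signal was 157.2 on control replicate 1, 181.5 on control replicate 2, 395.8 on obese replicate 1 and 266 on obese replicate 2, and values are given in this order throughout. The groups did not overlap, and obese replicate 1 was highest. The means were 169.3 ± 17.2 (SD, n = 2) and 330.9 ± 91.8, a log2 difference of 0.94 ± 0.22 (SE), with a 95% interval of 0.41 to 1.48 (limma adjusted p = 0.457). The difference was 0.66 without obese replicate 1 and 1.23 without obese replicate 2. It exceeded that of 99.4% of tested probe sets.

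Carboxypeptidase A3 removes single residues from the C-terminal ends of peptides and is stored with chymase. Cpa3 gave 342.7 and 430.1 on the control arrays and 833.2 and 483.1 on the obese arrays. The lower obese value stood close to the higher control value. The log2 difference was 0.73 ± 0.28, with an interval of 0.047 to 1.40 (limma adjusted p = 0.579), and it was 0.33 without obese replicate 1 and 1.12 without obese replicate 2. The obese arrays differed from each other by 0.79 on the log2 scale and the control arrays by 0.33.

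Tryptases are trypsin-like proteases that assemble into tetramers on heparin. Tpsab1 gave 71 and 93.7 in control and 140.7 and 106.1 in obese tissue, again with obese replicate 1 highest and no overlap. Its log2 difference was 0.58 ± 0.23, with an interval of 0.013 to 1.15 (limma adjusted p = 0.592). The value was 0.38 both without obese replicate 1 and without control replicate 1. Tpsb2, its neighbour, gave 199.8 and 198.6 in control and 176.3 and 244.9 in obese tissue. The control values of Tpsb2 were nearly equal and lay between the obese values, and here obese replicate 2 was the higher. The log2 difference of Tpsb2 was 0.061 ± 0.19, with an interval of -0.41 to 0.53 (limma adjusted p = 0.951), and it turned to -0.18 without obese replicate 2. The difference between the tryptases was not tested. The tryptase genes are close relatives, and how far their probes share transcripts was not examined here.

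Histidine decarboxylase makes histamine from histidine. Hdc was dim, at 32.6 and 35.1 in control and 64.4 and 53.5 in obese tissue, but above the floor on every array. The obese values were close to each other, the control values closer still, and the groups did not overlap. The log2 difference was 0.80 ± 0.20, with an interval of 0.30 to 1.29 (limma adjusted p = 0.467), and it lay between 0.66 and 0.93 whichever array was left out. With a pseudocount of 16 in place of the floor it was 0.585, so its size depends on how dim signals are handled.

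**Figure D1:**
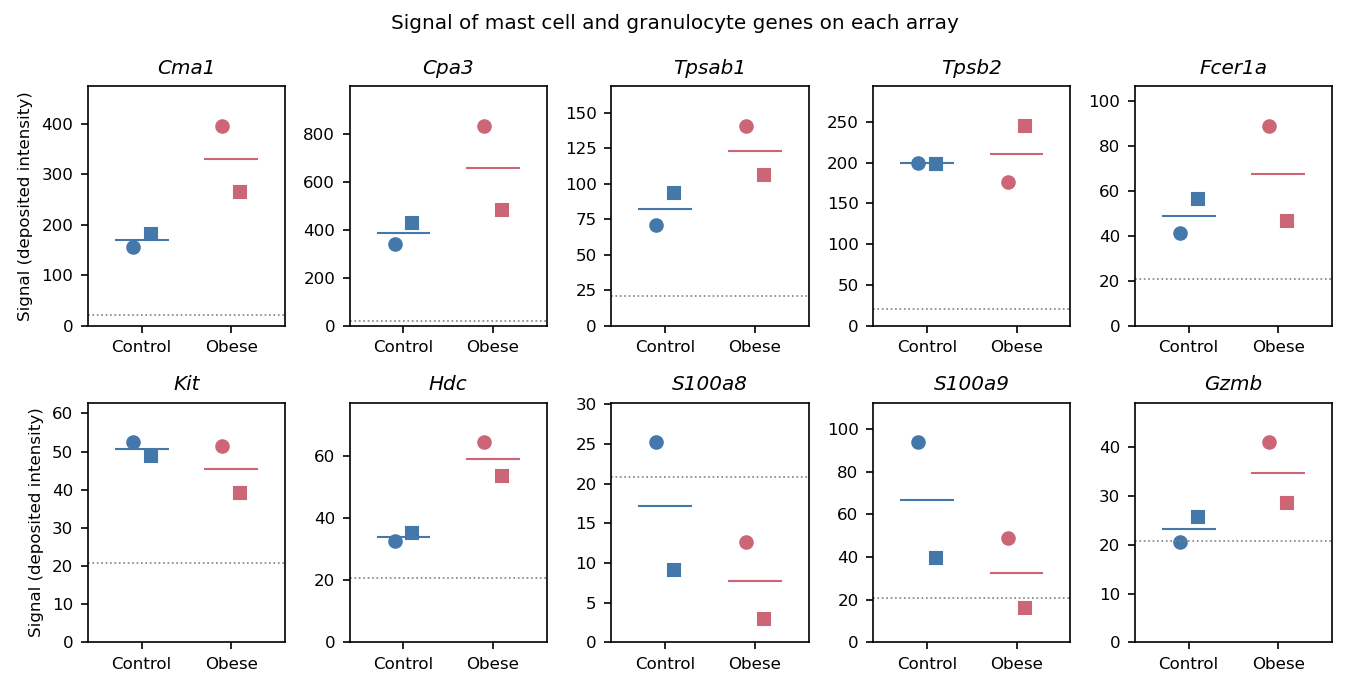
Signal of each of the 10 genes on the 4 arrays, as deposited intensity on a linear axis that starts at 0. Circles are replicate 1, squares replicate 2, horizontal lines group means, and the dotted line the floor of 20.8; Cma1, Cpa3, Tpsab1, Hdc and Gzmb show no overlap between control and obese arrays.

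The groups overlapped for both receptor genes among the 10. Fcer1a, the chain of the high-affinity receptor that binds IgE, gave 41.3 and 56.5 in control and 88.9 and 46.6 in obese tissue. Obese replicate 1 stood above the other arrays, and obese replicate 2 lay within the control range. The log2 difference was 0.41 ± 0.35, with an interval of -0.46 to 1.29 (limma adjusted p = 0.794), and it turned to -0.052 without obese replicate 1. Kit gave 52.4 and 48.9 in control and 51.6 and 39.2 in obese tissue, a narrow range on all arrays. Its log2 difference was -0.17 ± 0.22, with an interval of -0.71 to 0.37 (limma adjusted p = 0.876), and it was 0.028 without obese replicate 2. Both intervals overlap that of Tpsab1, 0.013 to 1.15. The interval of Fcer1a also overlaps that of Cma1, 0.41 to 1.48, while the interval of Kit ends below it. Differences between these genes were not tested.

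The neutrophil genes were mostly dim, though S100a9 on control replicate 1 exceeded that array's median signal of 83.1. S100a8 and S100a9 lie side by side on chromosome 2, and their proteins pair to form calprotectin. S100a8 gave 25.2 and 9.1 in control and 12.7 and 2.9 in obese tissue, under 20.8 on 3 of the 4 arrays, so it was not tested and no fold is given. S100a9 gave 93.6 and 39.5 in control and 48.9 and 16.1 in obese tissue, with only obese replicate 2 under 20.8. The control arrays of S100a9 differed by 1.25 on the log2 scale and the obese arrays, with the dim value raised to the floor, by 1.23, more than the difference between the groups. That difference was -0.93 ± 0.55, with an interval of -2.28 to 0.41 (limma adjusted p = 0.696), its size depends on the floor, and it ranged from -1.55 to -0.31 when single arrays were left out. For S100a9 control replicate 1 was the highest array and obese replicate 2 the lowest. For S100a8 control replicate 1 was the only array above the floor, and the others have no order.

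Granzyme B is a serine protease of cytotoxic T cells and natural killer cells that cleaves after aspartate. Its gene lies on chromosome 15, as does Cma1, with 27 protein-coding genes between them, several of them mast cell proteases. Gzmb gave 20.6 and 25.7 in control and 40.9 and 28.6 in obese tissue, with control replicate 1 just under 20.8. The groups did not overlap, but obese replicate 2 exceeded control replicate 2 by little. The log2 difference was 0.57 ± 0.25, with an interval of -0.057 to 1.19 (limma adjusted p = 0.625), and it was 0.31 without obese replicate 1, 0.82 without obese replicate 2 and 0.37 with a pseudocount of 16 in place of the floor. A further probe set, assigned to Gzmb together with another gene and therefore not counted, gave 0.7 to 3.9 on the 4 arrays, all under the floor.

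**Figure D2:**
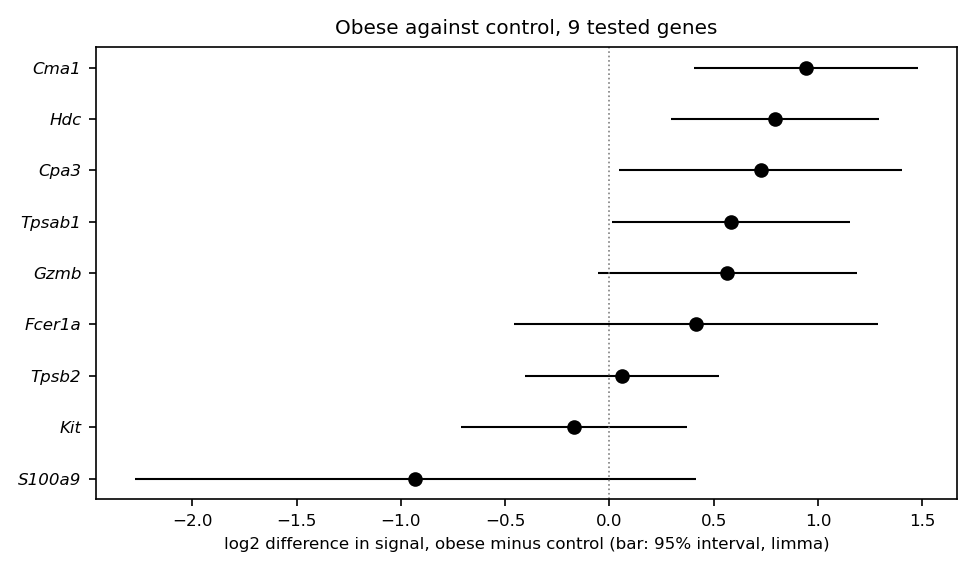
Log2 difference in signal, obese minus control, for the 9 tested genes, with 95% intervals from limma. The intervals of Cma1, Hdc, Cpa3 and Tpsab1 lie above 0 before adjustment over all probe sets, the lower ends being 0.41, 0.30, 0.047 and 0.013.

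Among the arrays, obese replicate 1 carried the highest signal for 6 of the 10 genes (Cma1, Cpa3, Tpsab1, Fcer1a, Hdc and Gzmb). Obese replicate 2 was highest for Tpsb2, and control replicate 1 for Kit, S100a8 and S100a9. Overlap was judged on the deposited signals, with no floor. Without obese replicate 1, 6 of the 10 genes were higher without overlap and 3 lower, where 28.7% and 46.7% of tested probe sets were. The gene added to the 5 was Tpsb2, and the lower ones were Kit, S100a9 and the untested S100a8, whose signals of 9.1 and 2.9 on replicate 2 of each group both lie under the floor and have no order. Without obese replicate 2, 6 were higher and 1 lower, beside 32.1% and 36.5%, and without control replicate 2, 6 were higher and 3 lower, beside 27.5% and 39.2%. Without control replicate 1, 5 were higher and 0 lower, beside 29.0% and 39.6%. Leaving out an array makes overlap less likely for every probe set.

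**Figure D3:**
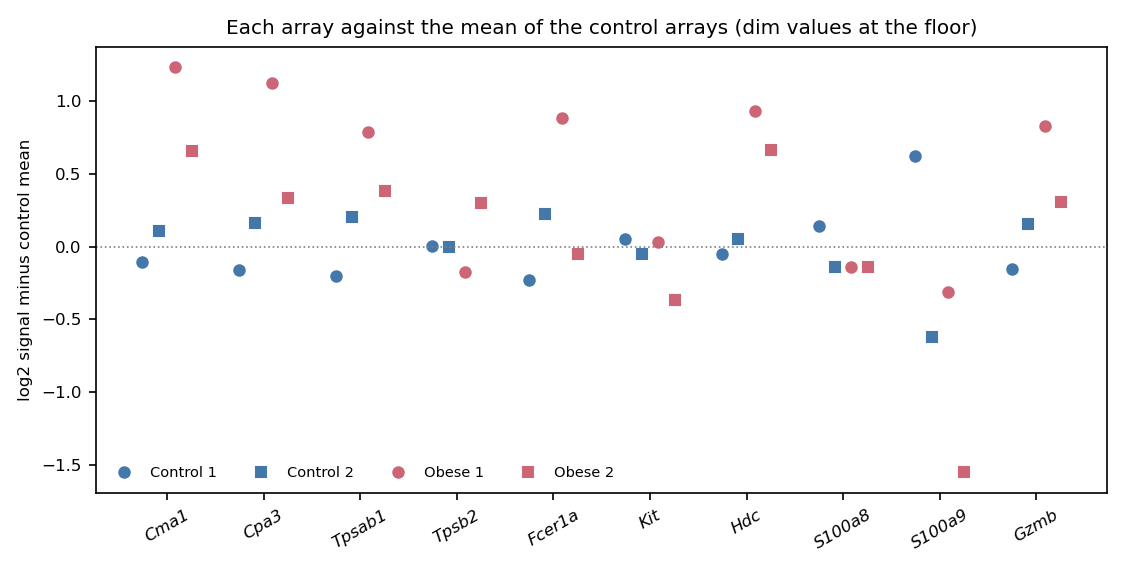
Log2 signal of each gene on each array minus the mean of the control arrays, with dim values raised to the floor. Obese replicate 1 (red circles) is farthest above the controls for Cma1 at 1.23 and Cpa3 at 1.12, and obese replicate 2 (red squares) farthest below for S100a9 at -1.55.

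Other genes of mast cells were looked at through a list of 45, of which 33 had a probe set and 24 were tested. In limma 0 passed (smallest adjusted p = 0.450) and 5 had an unadjusted p under 0.05, beside 8.3% of all tested probe sets. Without overlap, 3 were higher and 8 lower in obese tissue, beside 15.6% and 24.4% of all tested probe sets, and the median log2 difference was -0.13. Those 3 were Mcpt1l1, a protease of the mast cell protease family, Ms4a2, the beta chain of the IgE receptor, and Kitlg, the Kit ligand. Mcpt1l1 gave 277.9 and 273.6 in control and 560.3 and 356.2 in obese tissue, a log2 difference of 0.70 ± 0.23 (limma adjusted p = 0.522). As for Cma1, obese replicate 1 was highest, and the difference was 0.37 without it. The family holds similar genes, and how far the probes share their transcripts was not examined here. Ms4a2 gave 33.6 and 23.5 in control and 42.7 and 42.4 in obese tissue, a log2 difference of 0.60 ± 0.24 (limma adjusted p = 0.592), and 0.34 without control replicate 2. Kitlg gave 244.9 and 284.1 in control and 289.4 and 318.7 in obese tissue, a log2 difference of 0.20 ± 0.14 (limma adjusted p = 0.744), and 0.096 without control replicate 1.

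The listed genes with the smallest p-values among those lower in obese tissue were signalling genes that macrophages and other leukocytes also express. The receptor gamma chain Fcer1g, shared with Fc receptors of macrophages, gave 1264.2 and 1765.5 in control and 909 and 1006.2 in obese tissue, a log2 difference of -0.64 ± 0.19 (limma adjusted p = 0.515), and -0.40 without control replicate 2. The kinase genes Syk and Lyn, which act downstream of the IgE receptor, differed by -0.65 ± 0.15 and -0.55 ± 0.14 (limma adjusted p = 0.450 and 0.467). The IgE receptor genes therefore differed in sign, with Fcer1a and Ms4a2 above 0 and Fcer1g below 0. The interval of Fcer1a includes 0, and differences between these genes were not tested. Serglycin, Srgn, the proteoglycan core of granules in many blood cells, gave 464.6 and 522.9 in control and 524 and 486.9 in obese tissue, a log2 difference of 0.035 ± 0.13. The lysosomal and granule membrane gene Cd63 differed by -0.063 ± 0.18.

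A few further genes of this list are given because of the results above and were picked after their values were seen. Mcpt1, Mcpt3, Mcpt4, Mcpt8, Mcpt9 and Mcpt10, proteases of the same family, gave at most 26.9 on any array, and Mcpt1 on control replicate 2 was the only value above the floor. Mcpt8, a marker of basophils in mice, gave 0.2 to 1. The transcription factor genes Gata2 and Mitf differed by -0.034 ± 0.26 and -0.16 ± 0.19, with overlapping groups. Gata1 gave 35 and 40.3 in control and 28.9 and 25.6 in obese tissue, a log2 difference of -0.47 ± 0.20 (limma adjusted p = 0.616).

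Of 39 listed granulocyte genes, 23 had a probe set and 18 were tested. In limma 0 passed (smallest adjusted p = 0.402) and 4 had an unadjusted p under 0.05, beside 8.3% of all tested probe sets. Without overlap, 0 were higher and 9 lower, beside 15.6% and 24.4% of all tested probe sets, and the median log2 difference was -0.22. With median centring 2 were higher and 7 lower, beside 21.8% and 16.9%. With cyclic loess 3 were higher and 8 lower, beside 19.4% and 20%. Gelatinase B, Mmp9, stored in neutrophil granules, gave 40.5 and 48.5 in control tissue and 16.2 and 12.3 in obese tissue, which lie under the floor, and was at least 2.13-fold lower there (limma adjusted p = 0.402). The NADPH oxidase subunits Cyba and Cybb, which neutrophils and macrophages share, differed by -0.61 ± 0.20 and -0.62 ± 0.21 (limma adjusted p = 0.532 and 0.544). Cyba gave -0.39 without control replicate 2 and Cybb -0.39 without obese replicate 2. The integrin gene Itgam differed by -0.52 ± 0.37, Cd14 by -0.12 ± 0.14 and lipocalin 2, Lcn2, by 0.058 ± 0.32, all with overlapping groups.

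Cytotoxic lymphocyte genes other than Gzmb were listed as 24 genes, of which 20 had a probe set and 16 were tested. In limma 0 passed (smallest adjusted p = 0.438) and 2 had an unadjusted p under 0.05, beside 8.3% of all tested probe sets. Without overlap, 0 were higher and 5 lower (1 and 5 with median centring), beside 15.6% and 24.4% of all tested probe sets (21.8% and 16.9% with median centring), and the median log2 difference was -0.34. Granzyme K, Gzmk, gave 114.2 and 127.5 in control and 103.7 and 90.5 in obese tissue, a log2 difference of -0.32 ± 0.17, with an interval of -0.74 to 0.11. Gzmb and Gzmk thus differed in sign, but both intervals include 0 and the difference between them was not tested. The natural killer receptors Klrb1c and Klrd1 differed by -0.90 ± 0.20 and -0.76 ± 0.30 (limma adjusted p = 0.438 and 0.589), and Klrd1 gave -0.39 without control replicate 1. Klrk1 differed by 0.036 ± 0.29, Il2rb by -0.28 ± 0.18 and the chemokine gene Ccl5, which ranged from 45.5 to 223.4, by -0.35 ± 0.78.

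**Figure D4:**
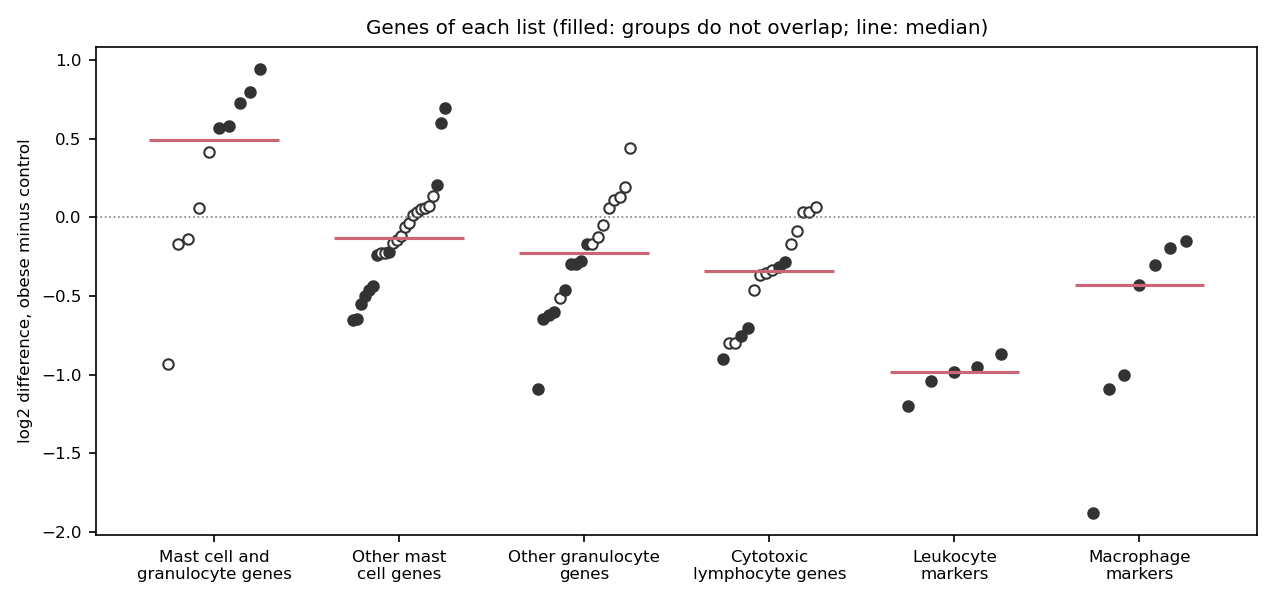
Log2 difference, obese minus control, of the 10 genes described here and of the tested genes of each other list; filled points are genes whose groups do not overlap and red lines are medians. The median is 0.49 for the 10 genes, -0.13, -0.22 and -0.34 for the wider mast cell, granulocyte and cytotoxic lists, and -0.98 and -0.43 for leukocyte and macrophage markers.

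Markers of other cells were read beside these genes. All 5 measured leukocyte markers (Ptprc, Cd53, Lcp1, Coro1a and Cd37) were lower in obese tissue without overlap, where 24.4% of all tested probe sets were (16.9% with median centring), with summed signals of 2016.8 to 2490.7 in control and 1004.8 to 1228.1 in obese tissue. The same held for all 7 measured macrophage markers (5 of 7 with median centring, where all 7 kept a negative difference), with sums of 7576.1 to 9515.1 and 5285 to 5299.6. Of the 9 tested genes among the 10, Kit at -0.17 and S100a9 at -0.93 had the same sign as these markers of blood-derived cells. Cma1, Cpa3, Tpsab1, Hdc and Gzmb were singled out above for being higher, so their sign was fixed by that choice. Tpsb2 and Fcer1a were above 0, but Tpsb2 turned to -0.18 without obese replicate 2 and Fcer1a to -0.052 without obese replicate 1. A contrast in sign between the 10 genes and the markers was not tested. The 7 measured adipocyte markers summed to 10570.2 to 10586.2 in control and 10494.7 to 12750.6 in obese tissue, and none was under the floor. Of these, 6 of 7 had a positive log2 difference. Plin1, the main coat protein of the lipid droplet, at 0.35 ± 0.14 and Slc2a4, the insulin-responsive glucose transporter, at 0.63 ± 0.20 were higher without overlap. That is 2 higher and 0 lower, beside 15.6% and 24.4% of all tested probe sets. With quantile normalization 3 were higher and 0 lower, beside 18.8% and 20.6%. With cyclic loess 3 were higher and 1 lower, beside 19.4% and 20%.

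Obese replicate 1, the array with the highest signals for 6 of the genes, also had the highest sums for markers of mesothelium and of keratinocytes. The 5 mesothelial markers summed to 787.1 and 949.4 in control tissue and to 1629 and 366.2 on obese replicates 1 and 2. The 4 keratinocyte markers summed to 248 and 299.8 in control tissue and to 700.2 and 137.9 on the obese arrays. Krt5 made up much of the sum on obese replicate 1, at 396.8 against 44.2 to 49 elsewhere. Krt14 gave 64.1 on that array against 61.7 on control replicate 2, and Dsp 220.7 against 176.2. Krt10 lay under the floor on every array. On obese replicate 2, where these sums were the lowest of the 4 arrays, the log2 signal minus the control mean was 0.66 for Cma1 and Hdc, 0.38 for Tpsab1, 0.33 for Cpa3, 0.31 for Gzmb and -0.052 for Fcer1a. On obese replicate 1 these values were 1.23, 0.93, 0.79, 1.12, 0.82 and 0.88 for Cma1, Hdc, Tpsab1, Cpa3, Gzmb and Fcer1a. Of 5 measured blood markers, 1 was higher and 2 were lower without overlap, beside 15.6% and 24.4% of all tested probe sets. The platelet gene Pf4 gave 452 and 416.7 in control and 1041.8 and 653.5 in obese tissue, while the other platelet marker Ppbp gave 35.1 to 49.2 on all arrays. The red cell genes Slc4a1 and Alas2 were the lower ones, with log2 differences of -1.26 ± 0.29 and -0.52 ± 0.19. The part of these markers in the differences of the 10 genes was not tested.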

How the data were processed

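Per the labels, total RNA of rat visceral adipose tissue was measured on 4 single-colour arrays, 2 Control and 2 Obese. The authors' deposited values are intensities on a linear scale, 1 per probe set; the software was not given in the sources used here. Scaling by the authors shows in the values, since means after trimming 2% at each end lay between 150.026 and 150.03, so they were used as deposited. After 57 control probe sets were left out, 15866 remained, of which 12783 carry 1 gene symbol in the platform annotation. Entrez identifiers found 12748 of these in RefSeq's GRCr8 table, with 0 symbols changed.

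Values were raised to the floor of 20.8 and log2 was taken. Probe sets above the floor on at least 2 arrays (12929) entered a fit in limma 3.58.1 (R 4.3.3) of obese minus control, with a variance trend, two-sided, Benjamini-Hochberg adjusted, at a threshold of 0.05. Fold values and SE are on this floored log2 scale; SDs are of intensities. Groups were said not to overlap when both obese arrays lay on the same side of both control arrays. For a gene, the probe set with the highest mean signal was used. All 10 genes were described; from each wider list the text names the 5 with the highest mean signal and up to 3 non-overlapping genes per direction with the smallest p. Genes and lists were chosen with earlier results of these data known. The code was tested on simulated data. The alternatives tried were median, quantile and cyclic loess scaling, floors at the 10th and 40th percentile, a pseudocount of 16, no filter or a stricter one, no variance trend, a replicate block and each array left out. The number of arrays limits the precision.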

Additional observations from a re-analysis of the deposited data

How the results depend on the processing

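In limma, 0 of the 10 genes passed under any alternative in which they could be tested, and S100a9 and Gzmb could not with all 4 arrays required above the floor, nor Kit, Hdc, S100a9 and Gzmb with the floor at the 40th percentile. Leaving aside those fits for those genes, no gene changed sign under the scalings, floors, filters, pseudocount or variance model run. S100a8 stood at 0 where all its arrays lay under the floor. In the fits that were read, signs turned only when an array was left out. Tpsb2 ranged from -0.18 to 0.30 and Kit from -0.37 to 0.028, both turning without obese replicate 2. Fcer1a ranged from -0.052 to 0.88, turning without obese replicate 1. The median over the 10 genes, 0.49, was 0.089 with the floor at the 40th percentile, which sets dim signals equal, and 0.28 to 0.80 without single arrays. Over all probe sets limma passed 3 with a pseudocount of 16, 6 with no filter and 1 with no variance trend, none among the 10 genes. Without single arrays, 5 to 6 of the 10 genes were higher without overlap and 0 to 3 lower, counting S100a8 on signals under the floor. Of all tested probe sets, 27.5% to 32.1% were then higher and 36.5% to 46.7% lower. The wider mast cell, granulocyte and cytotoxic lists, with 24, 18 and 16 tested genes, then had 15 to 20, 13 to 14 and 8 to 12 without overlap. With all arrays these were 11, 9 and 5, as fewer arrays overlap less often. Without obese replicate 1, the lists held 4, 1 and 0 higher and 15, 12 and 12 lower, beside 28.7% and 46.7%. Without obese replicate 2, they held 10, 2 and 5 higher and 10, 11 and 5 lower, beside 32.1% and 36.5%. With the replicate number as a block, 0 of the 10 genes passed. Deviations of same-numbered arrays from their group means correlated at 0.048 over probe sets. With 2 arrays in each group this is a single correlation, which cannot show if same-numbered samples were paired or handled together. The sample titles give the number alone. Signals near the floor limit S100a8, S100a9 and Gzmb.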
